A study of Mus musculus with 3 samples.

Results

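Negative feedback regulators of mitogen-activated protein (MAP) kinase signalling were followed in the hippocampus of adult male mice born to older or to young mothers. The 10 genes are the dual-specificity phosphatases Dusp1, Dusp4, Dusp5, Dusp6, Dusp8 and Dusp14, the Sprouty genes Spry1, Spry2 and Spry4, and Spred1. They were taken as every array probe whose gene name in the scanner files equals one of these symbols, which gave 13 of the 39429 probes that are not controls. Of these, 12 passed the filter on dim spots, and all 10 genes had at least 1 probe that passed, among 17964 genes with such a probe.

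In the older-mother group, females were bred at an age of 15 to 18 months, and in the young-mother group, which is the control, at 3 months. Both were paired with virgin males of 3 months, and the sons were killed at postnatal day 120 by cervical dislocation. No strain and no litter is named in the sources used here. Each RNA sample was a pool of total RNA from 3 males, and each of 3 two-colour Agilent arrays carried 1 older-mother pool in the dye Cy3 and 1 young-mother pool in Cy5. The value of a gene on an array is the log2 ratio of the older-mother over the young-mother pool, so that 0 means equal levels and each group is represented by 3 pools. Because the dyes were never swapped, the group and the dye cannot be told apart for any single gene.

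MAP kinases carry signals of growth factor receptors and of neuronal activity to the nucleus: ERK1 and ERK2 answer mostly to growth factors and synaptic input, JNK and p38 mostly to stress. A MAP kinase phosphatase removes the phosphates from the threonine and the tyrosine of the kinase's activation loop and so switches it off, whereas Sprouty and Spred proteins act upstream, between the receptor and Raf. Several of these genes are themselves switched on by the pathway they inhibit, and in the hippocampus Dusp1, Dusp4, Dusp5 and Dusp6 are known as genes that answer to synaptic activity.

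The CRE, the binding site of the transcription factor CREB, and the CArG box, that of serum response factor, are elements through which such genes are known to be switched on. The RefSeq promoter table (build GRCm38.p6, 250 bases before to 50 after each start site) held 8 of the 10 genes, all but Dusp4 and Spry4. Stretches upstream of the start are printed for the 3 genes whose window held a full CRE or a CArG box, 5′ to 3′ on the strand of the gene, with the matches in capitals. The stretches lie at chr17:26508593-26508672 (minus strand) for Dusp1, chr7:142095325-142095404 (minus strand) for Dusp8 and chr19:53529035-53529104 (plus strand) for Dusp5, and end 41 or more bases before the start.
Dusp1: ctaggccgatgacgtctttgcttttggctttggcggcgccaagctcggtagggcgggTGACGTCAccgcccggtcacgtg
Dusp8: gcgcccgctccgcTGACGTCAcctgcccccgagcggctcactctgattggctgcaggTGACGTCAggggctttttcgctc
Dusp5: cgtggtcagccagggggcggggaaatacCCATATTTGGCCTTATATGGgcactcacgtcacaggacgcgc
Dusp1 held 1 full CRE (TGACGTCA, the same on both strands) and Dusp8 held 2, while 1.79% of the 32851 promoter windows in the table held it. Dusp5 held 2 CArG boxes side by side, an element found in 1.63% of windows. The shorter CRE core TGACG, which overlaps every full CRE, was searched on both strands and stood in Dusp1, Dusp5 and Dusp8 and in 20.8% of windows. The letters of 5 other elements were searched on both strands too: AP-1 (TGANTCA), the glucocorticoid response element, the heat shock element, the Egr site (GCGTGGGCG) and an ETS site (CCGGAAG). None of these 5 was found in the 8 windows. They stood in 7.81%, 0.00913%, 0.603%, 0.612% and 8.86% of all windows, and a match describes the letters only.

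Of the 10 genes, 5 were higher in the older-mother pools at an adjusted p under 0.05 (limma, Benjamini-Hochberg over all probes tested): Dusp1, Dusp4, Dusp6, Spry4 and Spred1, of which Dusp1, Dusp6 and Spred1 changed sign when arrays were centred on their median in place of the loess dye correction. The rises were small, from 1.21-fold to 1.28-fold, with adjusted p from 0.0239 to 0.0382. None of the 10 was called lower by limma; at an unadjusted p under 0.05, 7 were higher and 1 lower. Over all 17964 genes tested, 7.34% were called higher and 12.2% lower, and 15.1% were higher and 24.3% lower at an unadjusted p under 0.05. Counted by probe, 5 of the 12 probes tested were higher and 0 lower, against 7.92% and 10.7% of all probes. The median log2 ratio of the 10 genes was 0.25, with medians of 0.12, 0.29 and 0.25 on arrays 1, 2 and 3, against -0.03 for all genes tested. The ratio was above 0 on all 3 arrays for 8 of the 10 genes, against 24.3% of all genes, and below 0 on all 3 for 1, Spry1, against 36.3%.

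With 3 arrays the calls depend on each of them: without replicate 2 or without replicate 3 all 5 calls ended. Over all genes, 219 were called higher and 296 lower without replicate 2. Without replicate 3 these counts were 26 and 0, while 5613 genes had an unadjusted p under 0.05. Without replicate 1 the calls of Dusp1 and Spry4 ended while Dusp8 and Spry2 passed. In that fit 4.99% of all genes were called higher and 7.86% lower. With Agilent's own processed signals 1 of the 5, Spry4, was called, while 3.65% of all genes were called higher and 5.58% lower. At an unadjusted p under 0.05, 7 members were higher and 1 lower in that setting, where 6374 of 17964 genes passed. Over 14 alternative fits the call as higher held in 8 for Dusp1, 9 for Dusp4, 10 for Dusp6, 10 for Spred1 and 11 for Spry4.

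**Figure D1:**
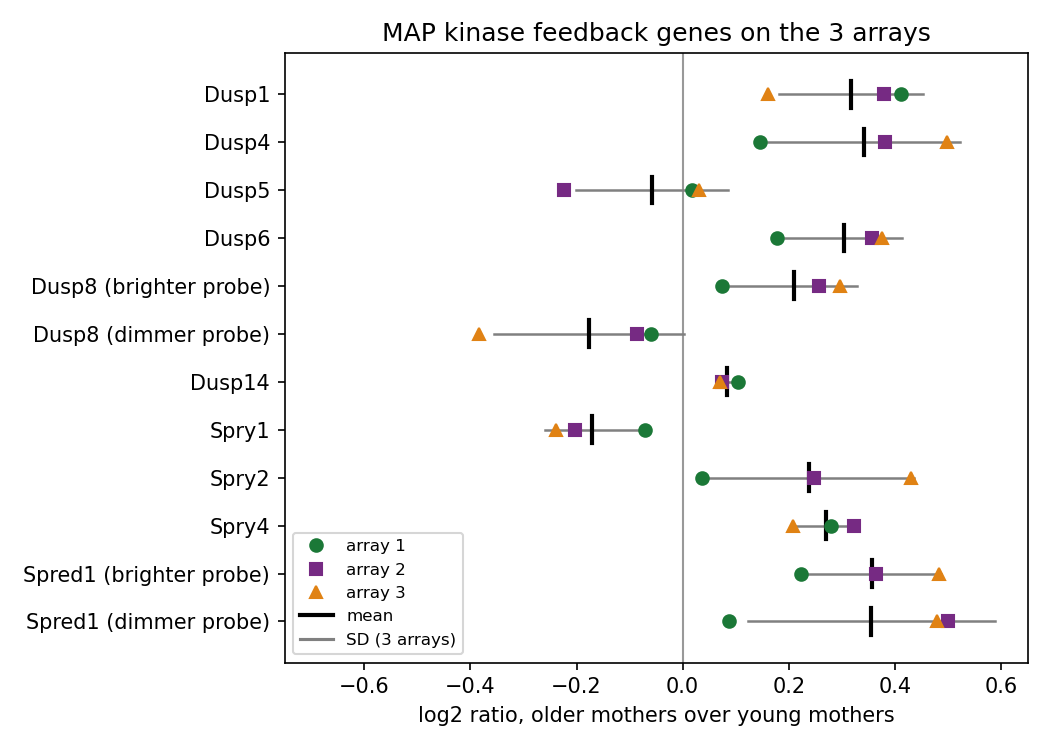
Ratio of older over young mothers on the log2 scale (x axis) for the 12 probes of the 10 genes that passed the filter on dim spots (y axis). Points are the 3 arrays, the black bar is their mean and the grey line the SD; 8 genes lie above 0 on every array with their brighter probe, with loess dye correction.

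Dusp1 is an inducible phosphatase located in the nucleus that acts on p38, JNK and ERK. It had log2 ratios of 0.41, 0.38 and 0.16 on arrays 1, 2 and 3. Its mean of 0.32 ± 0.14 (SD, n = 3) corresponds to a 1.25-fold rise (limma adjusted p = 0.0311). The call ended when the dye channels were fitted separately (limma adjusted p = 0.095). The level of each pool on its own, taken from the separate dye channels after loess within and Aquantile scaling between arrays, was 9.32, 8.89 and 8.92 (log2 intensity) in the older-mother pools. The young-mother pools had 8.91, 8.51 and 8.76. The older-mother pool was the higher of the pair on every array, but the groups overlapped, since the young-mother pool of array 1 was above the older-mother pool of array 2; without the Aquantile step they did not overlap. Dusp1 was high in both pools of array 1, so that much of its spread lay between arrays and not between groups.

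Dusp4, a nuclear phosphatase of ERK, JNK and p38, had log2 ratios of 0.15, 0.38 and 0.50. The mean was 0.34 ± 0.18 (SD, n = 3), a 1.27-fold rise (limma adjusted p = 0.0382). The older-mother pools stood at 8.20, 8.30 and 8.30 and the young-mother pools at 8.06, 7.92 and 7.80 (log2 intensity). All older-mother pools were above all young-mother pools, and the gap was narrowest on array 1. Dusp4 kept its sign under median centring, at 0.09 (adjusted p = 0.285), which is 0.49 above the all-gene median of that setting. Its call ended with a smaller offset (16) in the background correction (limma adjusted p = 0.0533).

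Dusp5, a nuclear phosphatase selective for ERK, was measured by a dim probe, and its groups overlapped. The ratios were 0.02, -0.22 and 0.03, and their mean, -0.06 ± 0.14 (SD, n = 3), missed the threshold (limma adjusted p = 0.544). The 95% interval of its ratio ran from -0.22 to 0.11. Its sign followed the processing, at 0.17 with Agilent's processed signals and 0.22 under median centring.

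Dusp6, the cytoplasmic phosphatase that binds and inactivates ERK, had ratios of 0.18, 0.36 and 0.38. The mean of 0.30 ± 0.11 (SD, n = 3) is a 1.23-fold rise (limma adjusted p = 0.0279). The older-mother pools stood at 11.93, 12.08 and 12.08 and the young-mother pools at 11.75, 11.73 and 11.70 (log2 intensity), with no overlap. The young-mother pools lay close together, and the older-mother pool of array 1 was the lowest of its group. Its probe lies at chr10:98729985-98730044 in mm9, the build the array files name. Under median centring the ratio turned to -0.33 (called lower, limma adjusted p = 0.0013), which is 0.07 above the all-gene median of that setting.

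Dusp8, a phosphatase of JNK and p38 that is abundant in brain, gave opposite signs with its 2 probes. The brighter probe, at chr7:149267534-149267593 (mm9, minus strand), had ratios of 0.07, 0.26 and 0.30 and their mean, 0.21 ± 0.12 (SD, n = 3), missed the threshold (limma adjusted p = 0.0631). The dimmer probe, at chr7:149265961-149266020 and 1573 bases further along the strand of the gene, had -0.06, -0.09 and -0.38 and a mean of -0.18 ± 0.18 (SD, n = 3; limma adjusted p = 0.151).
The brighter probe exceeded the dimmer one on every array, by 0.13, 0.34 and 0.68 on the log2 scale, a mean difference of 0.39 ± 0.28 (SD, n = 3) that was not tested. In each case the older-mother and young-mother pools did not overlap, with the older group higher by the brighter and lower by the dimmer probe. Averaged over its probes Dusp8 was at 0.02 (adjusted p = 0.818), so its direction depends on the probe. Under median centring the brighter probe turned to -0.43, or -0.03 relative to the all-gene median of that setting.

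Dusp14, a small atypical phosphatase without the kinase-binding domain of the others, varied least between arrays, with ratios of 0.10, 0.08 and 0.07. Its mean was 0.08 ± 0.02 (SD, n = 3) and did not pass (limma adjusted p = 0.207; 95% interval from -0.02 to 0.19). The pools of its groups overlapped. Under median centring it turned to -0.45, or -0.05 relative to the all-gene median.

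**Figure D2:**
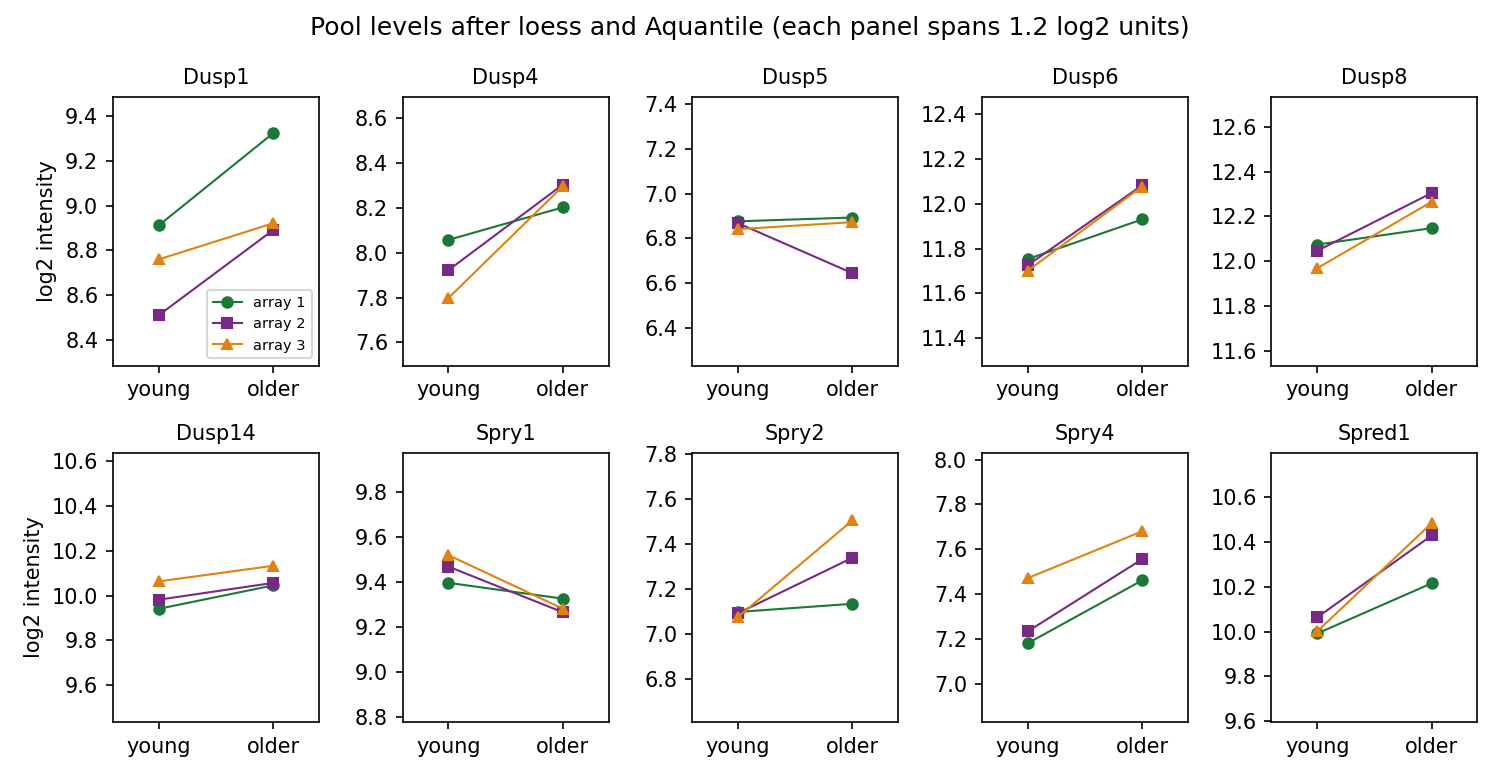
Level of each gene in each pool (y axis, log2 intensity after loess and Aquantile scaling; x axis, young-mother or older-mother pool), with a line joining the pools hybridised to the same array. Of the 10 genes, Dusp4, Dusp6, Dusp8, Spry2 and Spred1 show older-mother pools above all young-mother pools, Spry1 shows them below, and the other 4 overlap; panels differ in their y axis values but not in its length.

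The Sprouty genes did not share a direction. Spry4, an inhibitor of signalling from growth factor receptors to Ras, had ratios of 0.28, 0.32 and 0.21 and a mean of 0.27 ± 0.06 (SD, n = 3), a 1.21-fold rise (limma adjusted p = 0.0239). The older-mother pools stood at 7.46, 7.56 and 7.68 and the young-mother pools at 7.18, 7.23 and 7.47 (log2 intensity). The older-mother pool was higher on each array, and the groups overlapped by the young-mother pool of array 3. Spry4 kept its sign in every alternative run, with values from 0.18 to 0.35.

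Spry2, which inhibits ERK activation by fibroblast growth factors, had ratios of 0.04, 0.25 and 0.43 and their mean, 0.24 ± 0.20 (SD, n = 3), missed the threshold (limma adjusted p = 0.0931). The young-mother pools were nearly level at 7.10, 7.09 and 7.07 (log2 intensity), while the older-mother pools were spread over 7.13, 7.34 and 7.51. The groups did not overlap, by a narrow margin on array 1. Without replicate 1 the mean was 0.34 and passed (limma adjusted p = 0.0469).

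Spry1, the Sprouty that restrains receptor signalling in many developing organs, was the 1 gene of the 10 below 0 on all 3 arrays, with ratios of -0.07, -0.20 and -0.24. Its mean was -0.17 ± 0.09 (SD, n = 3), with an unadjusted p of 0.0196 and a limma adjusted p of 0.0739. The older-mother pools at 9.33, 9.27 and 9.28 lay below the young-mother pools at 9.40, 9.47 and 9.52 (log2 intensity), without overlap. It passed with no background correction (-0.20, adjusted p = 0.0292) and with separate channels (adjusted p = 0.0348).

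Spred1, which binds neurofibromin and so keeps Ras inactive, showed the largest rise of the 10 as reported here, with ratios of 0.22, 0.37 and 0.48. The mean was 0.36 ± 0.13 (SD, n = 3), a 1.28-fold rise (limma adjusted p = 0.0243). The older-mother pools stood at 10.22, 10.43 and 10.48 and the young-mother pools at 9.99, 10.06 and 10.001 (log2 intensity), with no overlap. A second probe, 954 bases away, gave 0.09, 0.50 and 0.48 and nearly the same mean, 0.36 ± 0.23 (SD, n = 3), but a wider spread, and just missed the threshold (limma adjusted p = 0.0515). The probes lie at chr2:117005906-117005965 and chr2:117004952-117005011 in mm9. A further probe, designed on another transcript record of Spred1, was not well above background on any array in the older-mother pools and was not tested. Under median centring the brighter probe turned to -0.19 (called lower, limma adjusted p = 0.018), which is 0.22 above the all-gene median of that setting.

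Of the 8 genes with a mean above 0, 5 had their lowest ratio on array 1 (Dusp4, Dusp6, Dusp8, Spry2 and Spred1) and 2 their highest (Dusp1 and Dusp14). Over the single pools, 5 of the 10 genes were higher in all older-mother pools, against 16.7% of all genes, and 1 was lower in all, against 26.0%. Of the 5 genes called higher, 3 (Dusp4, Dusp6 and Spred1) also had pools that did not overlap.

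The rest of the pathway is described from lists of genes, each counted by 1 probe per gene. The lists, like the members, were chosen with earlier results of these data known, though they were not trimmed by how their genes moved. A difference between the members and a list can therefore come from that choice. Among the other MAP kinase phosphatases and their pseudophosphatase relatives, 0 of 6 measured genes passed in either direction by limma, and 0 had an unadjusted p under 0.05. The smallest p were those of the mitochondrial pseudophosphatase Styxl1 (-0.14 ± 0.14, SD, n = 3) and of Dusp2, a phosphatase best known from immune cells (-0.19 ± 0.23, SD, n = 3). The list median was -0.07. Of 11 atypical dual-specificity phosphatases 3 fell and 0 rose (1 and 6 were higher and lower at an unadjusted p under 0.05), with a median of -0.16. Those that fell were Dusp12 at -0.36 ± 0.05, Dusp22, a phosphatase that acts in JNK signalling, at -0.25 ± 0.05, and Dusp23 at -0.24 ± 0.10 (each SD, n = 3).

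Of 15 other Spred genes, Sprouty genes and brakes on Ras or its receptors, 1 rose and 3 fell. The riser was Errfi1, the feedback inhibitor of the epidermal growth factor receptor, with ratios of 0.62, 0.73 and 0.64 and a mean of 0.66 ± 0.06 (SD, n = 3; limma adjusted p = 0.0124). Under median centring Errfi1 was at 0.03 and no longer passed (limma adjusted p = 0.666), but it lay 0.43 above the all-gene median of that setting. The Ras GTPase-activating protein Rasal1 was at -0.36 ± 0.11, its relative Dab2ip at -0.22 ± 0.07 and Pea15a, which holds ERK in the cytoplasm, at -0.20 ± 0.06 (each SD, n = 3).

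In the ERK cascade 1 of 26 genes rose and 2 fell (2 and 10 were higher and lower at an unadjusted p under 0.05), with a list median of -0.05. Map2k1, which encodes the ERK kinase MEK1, was at 0.20 ± 0.06 but turned to -0.49 under median centring, while the small GTPase Rras was at -0.30 ± 0.03 and Frs2, the docking protein of fibroblast growth factor receptors, at -0.23 ± 0.02 (each SD, n = 3). In the JNK, p38 and ERK5 cascades 0 of 25 rose by limma and 1 fell (1 and 7 were higher and lower at an unadjusted p under 0.05). The gene that fell was the p38 isoform Mapk11 at -0.18 ± 0.05 (SD, n = 3). Of 10 kinases that MAP kinases activate, Mknk2 was at 0.37 ± 0.05 (-0.25 under median centring) and Rps6ka4, a kinase of histone H3, at -0.19 ± 0.06 (each SD, n = 3), and the other 8 did not pass.

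Upstream, 1 of 14 fibroblast growth factor ligands and receptors rose and 2 fell. Fgf18 was at 0.21 ± 0.06 (-0.08 under median centring), Fgf22, a presynaptic organiser, at -0.31 ± 0.05, and the receptor-like Fgfrl1 at -0.24 ± 0.09 (each SD, n = 3). Of 16 genes of other receptor tyrosine kinases and their ligands, Kitl, the ligand of the receptor Kit, rose by 0.27 ± 0.10 and Pdgfrb, a receptor of pericytes, was at -0.52 ± 0.19 and fell (each SD, n = 3).

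Downstream, 6 of 20 transcription factors and targets that depend on ERK rose and 1 fell, with a list median of 0.09. Maff, a small Maf transcription factor, rose by 0.98 ± 0.14, Fosl2, an AP-1 subunit, by 0.77 ± 0.22, and Sik1, a salt-inducible kinase, by 0.47 ± 0.07 (each SD, n = 3). Phlda1 was at 0.31 ± 0.01 (SD, n = 3), but at -0.27 under median centring. The gene that fell, named after its value was seen, was the ETS factor Elk3 (-0.30 ± 0.04, SD, n = 3). The ETS factors Etv1, Etv4 and Etv5, also singled out after their values were seen because they are widely used beside Dusp6 and the Sproutys as a readout of ERK, had means of -0.01 ± 0.09, 0.01 ± 0.07 and 0.02 ± 0.26 (each SD, n = 3). Their limma adjusted p were 0.928, 0.849 and 0.873.

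The calls in these lists rested on single arrays too. Without replicate 2 the list of ERK-dependent genes had 3 calls, that of Spred genes and other brakes 1 and the other 7 lists 0. Without replicate 3 the ERK-dependent list had 1 call and the other 8 lists 0. Without replicate 1, 4.99% of all genes were called higher and 7.86% lower. The ERK-dependent list then had 8 calls and the fibroblast growth factor list 3. The atypical phosphatases, the brakes, the ERK cascade and the other receptors then had 2 each, and the kinases that MAP kinases activate 1. The other MAP kinase phosphatases and the JNK, p38 and ERK5 cascades had 0. Averaged over all probes of a gene, Dusp22 was at -0.06 (limma adjusted p = 0.378), Dab2ip at -0.11 (adjusted p = 0.164) and Elk3 at -0.11 (adjusted p = 0.134), and their calls ended. With Agilent's processed signals the calls of Dusp22, Dusp23, Rasal1, Dab2ip, Pea15a, Frs2, Map2k1, Mapk11, Fgfrl1, Fgf18, Pdgfrb, Kitl, Rps6ka4 and Elk3 ended. In that setting those of Dusp12, Errfi1, Rras, Fgf22, Maff, Sik1, Fosl2, Phlda1 and Mknk2 held. Kitl also lost its call with no background correction (0.12, limma adjusted p = 0.104). Map2k1, Fgf18 and Rps6ka4 lost theirs with the deposited table (limma adjusted p = 0.0582, 0.0501 and 0.0576).

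**Figure D3:**
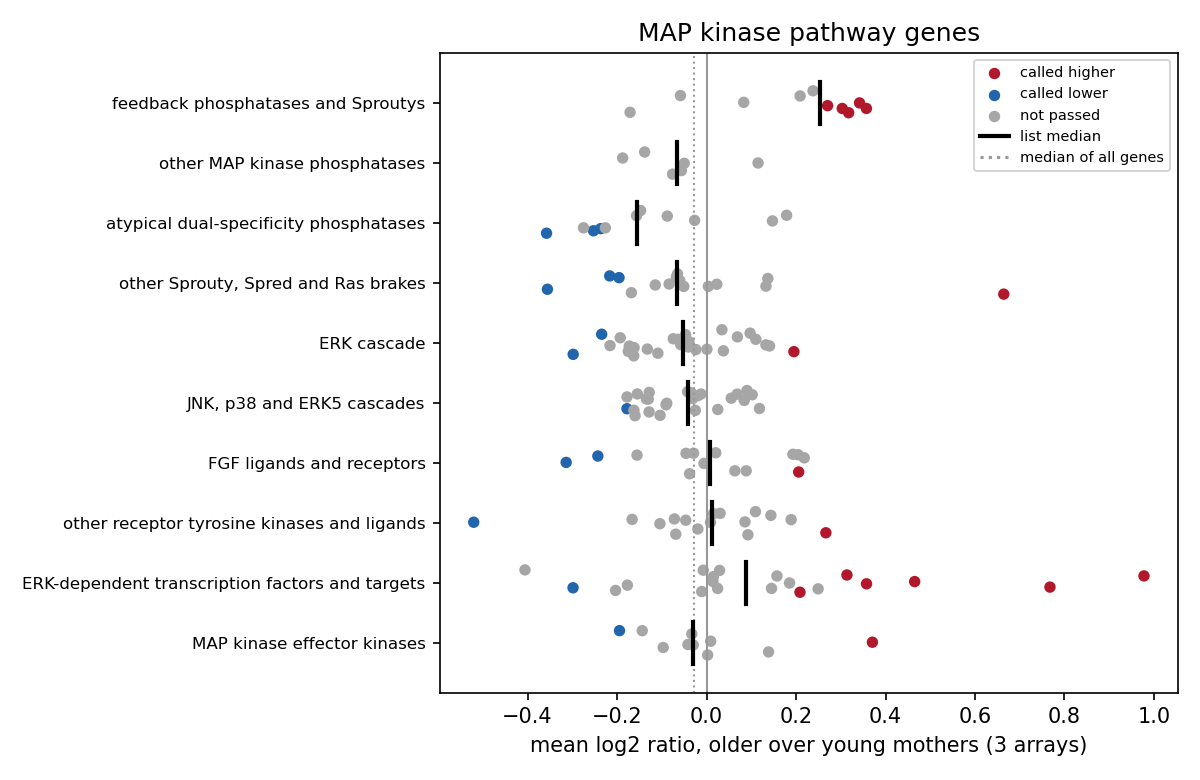
Mean log2 ratio of older over young mothers (x axis) for every measured gene of the 10 feedback genes and of the 9 pathway lists (y axis), with loess dye correction; red and blue mark genes called higher and lower, the black bar is the list median and the dotted line the median of all genes. The medians run from -0.16 for atypical phosphatases to 0.25 for the feedback genes; under median centring the latter is -0.14, which is 0.27 above the all-gene median of that setting. Members and lists were chosen with earlier results of these data known.

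The tissue label and the purity of the pools bear on these values. Of 10 markers of hippocampal and forebrain neurons all 10 were well above background in every pool, with 2 higher and 2 lower and a median of -0.05. In bulk tissue, fewer cells of a type and less RNA per cell cannot be told apart. Markers of choroid plexus, an epithelium that borders the hippocampus, had a median of -1.20 over 8 genes, with medians of -0.90, -2.19 and -0.41 on arrays 1, 2 and 3, and 2 of the 8 fell (8 at an unadjusted p under 0.05). Their summed intensity ran from 9239 to 68415 units in older-mother pools and from 78577 to 115197 in young-mother pools. Of 8 leptomeningeal markers 6 fell, with sums from 6127 to 9931 and from 8246 to 10395 units. All 16 of these markers were well above background in every pool, and their part in the values of the feedback genes was not tested. Of the markers of astrocytes 1 of 6 rose, of oligodendrocytes and their precursors 0 of 7 passed by limma (1 at an unadjusted p under 0.05), of microglia 1 of 6 fell and of endothelium 1 of 6 rose and 2 fell. Of 4 measured hypothalamic markers 0 passed by limma (0 at an unadjusted p under 0.05), with Agrp not above background, and of 3 red cell genes 1 fell.

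**Figure D4:**
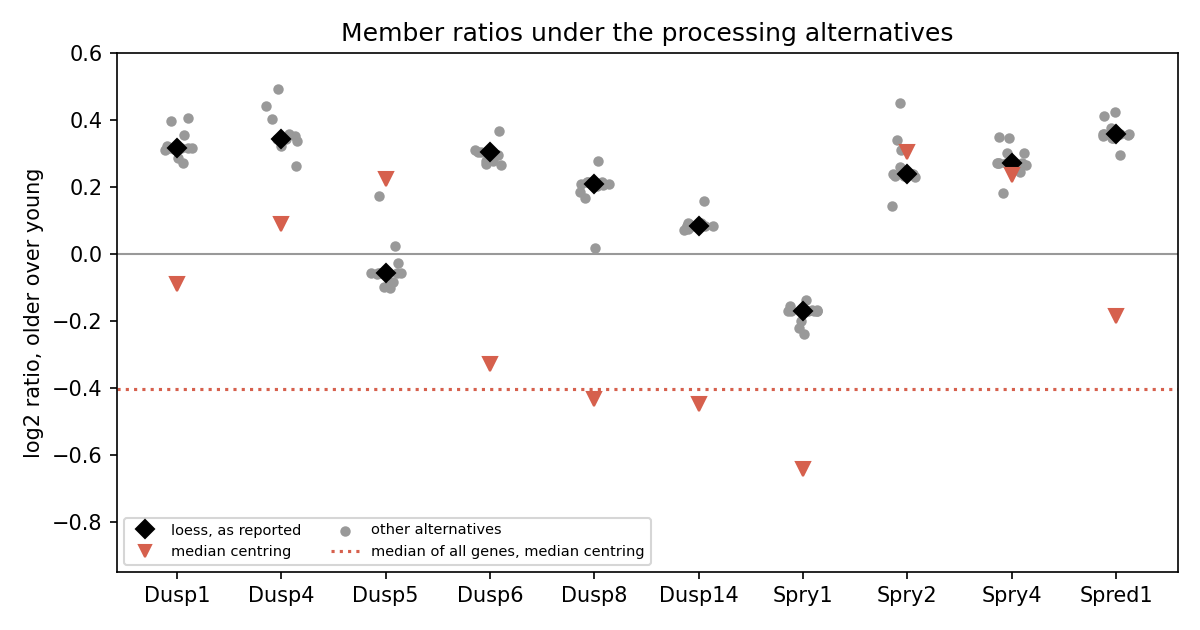
Log2 ratio of older over young mothers (y axis) of the 10 genes (x axis) as reported with loess (diamonds), with arrays centred on their median (triangles) and under the other alternatives (grey points). Median centring moved the median of all genes to -0.40 (dotted line) and took Dusp1, Dusp6, Dusp8, Dusp14 and Spred1 below 0, to -0.09, -0.33, -0.43, -0.45 and -0.19, and Dusp5 above 0, to 0.22, while Dusp4, Spry2 and Spry4 remained above 0.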

How the data were processed

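Total RNA of hippocampal pools was measured on 3 two-colour arrays. The scanner output came from Agilent Feature Extraction 10.10.1.1 on a design in build mm9, per the file headers. Mean and median spot signals and local backgrounds are raw intensity values, and processed signals are intensity values corrected for background and dye, per the file headers. The log ratio column, log10 of processed Cy5 over Cy3 per the file headers, was not used. Flags for spots above background, saturated or outlying are other values, 0 or 1, per the file headers. In the deposited table each value is a log2 ratio of Cy3 over Cy5, made by the authors by steps not given in the sources used here; normexp (offset 50) and loess on the median signals returned these values to within 5.0e-10.

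From the mean signals, background was corrected by normexp with offset 50 and the dyes balanced by loess with span 0.3 (limma 3.58.1, R 4.3.3), leaving out control and outlier spots. The offset draws ratios of dim probes towards 0. Probes well above background in Cy3 or in Cy5 on all 3 arrays were kept, 27630 of 39429, and the brightest kept probe stands for its gene. Ratios were tested against 0 with lmFit and eBayes (two-sided, 2 residual and 3.42 prior degrees of freedom), with Benjamini-Hochberg adjustment across the kept probes. Pool levels came from the separate channels after Aquantile scaling.

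All 3 arrays were on 1 slide, so no batch term was possible, and 0 spots were saturated. From 64.6% to 66.7% of spots were well above background in Cy3 and from 71.0% to 74.9% in Cy5, and precision is limited by the number of arrays. The labels call the pools biological replicates, and animals within a pool cannot be told apart.

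The members and lists were chosen with earlier results of these data known. Named genes are all members, up to 4 called genes with the smallest p of each list and, for a list with none called, the 2 with the smallest p; others are said to be named after their values were seen. The steps were tested on simulated spot signals of this comparison (27630 probes): 88 of the 100 probes set to a log2 change of 0.5 passed, and their median estimate was 0.39. The sizes set were 0, 0.5 and 1. Changes as small as the means of the called members, 0.27 to 0.36, were not simulated. Gene symbols came from the files and, for the lists, from RefSeq by accession (28025 probes matched). Exon and UTR positions of probes are not given, since no mm9 annotation was used here.

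Alternatives tried, one at a time, were signals processed by Agilent, omission of background correction, a smaller offset (16), centring on medians, scaling across arrays, the authors' table, the filter on dim probes omitted or tightened, a robust variance trend, separate channels, averaging over a gene's probes, omission of the Aquantile step, and dropping each replicate.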

Additional observations from a re-analysis of the deposited data

How the results depend on the processing

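The count of members called higher, 5 as reported, was 1 with Agilent's processed signals, where 3.65% of all genes were called higher. With median centring in place of loess the count was 3: Spry4, and Dusp5 and Spry2, which were not called as reported (limma adjusted p = 0.011 and 0.0053). Dusp6 and Spred1, called higher as reported, were called lower there (limma adjusted p = 0.0013 and 0.018). With separate channels the count was 5, with Dusp8 in place of Dusp1, while 9.73% of all genes were called higher. It ran from 0 to 5 over the fits without 1 replicate. It was 0 without replicate 2 and without replicate 3. Each time 5 members were higher and 0 lower at an unadjusted p under 0.05. The count called lower, 0 as reported, was 1 with no background correction, 1 with separate channels and 5 with median centring, and it was 0 without any 1 replicate. Of all genes, 17.8% were called higher and 67.4% lower with median centring, 17.3% lower with no background correction and 2874 of 17964 lower with separate channels. The median log2 ratio of the members ran from 0.21 to 0.27 without 1 replicate and turned to -0.14 under median centring, where the median of all genes lay at -0.40. There Dusp1 (-0.089), Dusp6 (-0.33), Spred1 (-0.19), Map2k1 (-0.49), Fgf18 (-0.079), Phlda1 (-0.27) and Mknk2 (-0.25) turned too; relative to the median of all genes, Map2k1 was at -0.09 and the other 6 above 0. Of members not called, Dusp8 (-0.43), Dusp14 (-0.45) and Dusp5 (0.22) changed sign; relative to that median Dusp8 was at -0.032, Dusp14 at -0.046 and Dusp5 at 0.63. Unlike loess, that setting does not remove a dependence of the ratio on intensity. The cause of these changes and of those in other settings was not tested. The number of members whose pools did not overlap was 6. Of these, 5 had the older group higher, against 16.7% of all genes, and 1 had it lower, against 26.0%. With no Aquantile step the number was 7, and the share of all genes was not computed there. The deposited table gave 5 higher and 0 lower, while 6.40% of all genes were called higher and 10.9% lower. The largest difference of a member's mean in that table from that reported was 0.0316 (Dusp5). A paired fit is the one reported, since each ratio pairs 2 pools on 1 array. Dusp1, Dusp4, Dusp5, Spry2 and Spry4 had a mean level below 9 (log2 intensity) over the pools of both groups. Of these, Dusp5, Spry2 and Spry4 were the dimmest. Low signal limits the ratios: Spry2 was at 0.24 as reported and at 0.45 with processed signals, and Dusp4 at 0.34 and 0.49.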
